A study of Mus musculus with 4 samples.

Results

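The 32 genes described here act in the G2 phase of the cell cycle and in mitosis, and they were measured in red cell precursors of mice with and without Parp2. They are listed by name for their roles, and the list was drawn up with earlier results of these arrays known. Of the 32 genes, 31 had a probe set that names them alone, out of 19938 such genes in the series; Ccnb1, the gene of cyclin B1, had none and was not measured. Each gene is represented by its brightest probe set on average, and among these genes Top2a alone had a further probe set of its own. The cells were bone marrow cells sorted for the erythroid surface antigen Ter119 and for CD71, the transferrin receptor, a gate that takes in nucleated red cell precursors (erythroblasts) of several stages. RNA of 2 wild type and 2 Parp-2-/- samples was hybridised to whole-transcript arrays, and all 4 samples had the strain background C57BL/6. The age of the mice, the part of Parp2 that is removed and whether a sample held 1 animal or a pool are not given in the sources used here. The title of each sample ends in the number 1 or 2, which serves here as the replicate number and whose meaning is not given either. Values are log2 expression levels, so that a difference of 1 is a doubling. Levels of different genes are not compared, since probe sets differ in brightness.

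A cell enters mitosis when Cdk1, bound to cyclin A or cyclin B, is freed of inhibitory phosphates by the Cdc25 phosphatases. Aurora and Polo-like kinases then build the spindle, kinetochore proteins and checkpoint kinases hold the chromosomes until each is attached, and the anaphase-promoting complex with Cdc20 starts their separation by destroying cyclin B and securin. Erythroblasts divide several times while they mature and leave the cell cycle before the nucleus is expelled, so that transcripts of these genes are plentiful in early and intermediate stages. In most dividing cells the genes are switched on together late in the cycle through the CCAAT box, bound by the factor NF-Y, and the cell cycle homology region (CHR), bound by the DREAM and MuvB complexes, through which p53 can also lower them.

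Promoter sequences are shown because these shared elements were no part of the choice of genes. RefSeq promoter windows of the mouse build GRCm38.p6, from 250 bases before to 50 bases after the gene start, were at hand for 27 of the 32 genes; Ccna2, Cdc25c, Aurkb, Kif20a and Tpx2 had no entry in the table used. The CHR was searched as TTTGAA or TTCGAA and the CCAAT box as CCAAT, both on either strand, and matches of the 2 motifs were counted separately even where they overlapped. A CHR match was present in 22 of the 27 genes (81.5%), against 21.7% of the 27025 genes in the table. CCAAT matches were present in 23 of 27 (85.2%, against 41.1%), and both motifs stood in 1 window in 20 of 27 (74.1%, against 8.61%). In 20 of the 27 the CHR match began within 50 bases of the start, which held for 6.12% of all genes. The replication and licensing genes, which peak earlier in the cycle, had a CHR match in 5 of 25 (20%) and a CCAAT match in 16 of 25 (64%). A further list of mitotic genes had them in 47 of 83 (56.6%) and 49 of 83 (59%). Birc5 and Mad2l1 held neither set of letters in this window, Ccnb1, Cenpe and Nek2 held CCAAT alone, and Kif2c and Knl1 held the CHR letters alone. A match describes the sequence and does not show a bound site.

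The 120 bases before the start are printed for 6 genes to which the results below return, 5' to 3' on the strand of the gene, with CHR and CCAAT matches in capitals. Cdk1 and Top2a stand for genes with several matches. Cdc20 and Ube2c have the pair of motifs at close distance. Cdc25b and Kif2c showed the extreme differences between the genotypes, and the CHR match of Cdc25b lies just after the start and is therefore not in the stretch shown.
Cdk1, GRCm38.p6 chr10:69352913-69353032, minus strand: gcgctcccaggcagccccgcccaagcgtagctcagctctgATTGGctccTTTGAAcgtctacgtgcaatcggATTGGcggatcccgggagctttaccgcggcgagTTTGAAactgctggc
Top2a, chr11:99024190-99024309, minus strand: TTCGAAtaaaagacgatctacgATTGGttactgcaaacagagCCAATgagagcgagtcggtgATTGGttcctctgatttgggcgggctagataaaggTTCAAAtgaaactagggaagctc
Cdc20, chr4:118437344-118437463, minus strand: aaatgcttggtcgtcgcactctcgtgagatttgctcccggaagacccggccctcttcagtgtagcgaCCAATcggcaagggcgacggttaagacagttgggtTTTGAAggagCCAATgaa
Ube2c, chr2:164769809-164769928, plus strand: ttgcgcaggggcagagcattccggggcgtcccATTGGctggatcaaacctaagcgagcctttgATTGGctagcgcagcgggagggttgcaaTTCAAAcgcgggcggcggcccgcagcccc
Cdc25b, chr2:131186828-131186947, plus strand: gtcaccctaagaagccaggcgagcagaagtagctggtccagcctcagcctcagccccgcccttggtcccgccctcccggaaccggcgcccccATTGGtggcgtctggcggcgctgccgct
Kif2c, chr4:117178773-117178892, minus strand: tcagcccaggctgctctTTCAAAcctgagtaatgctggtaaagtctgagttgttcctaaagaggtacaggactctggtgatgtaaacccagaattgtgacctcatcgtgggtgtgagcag

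**Figure D1:**
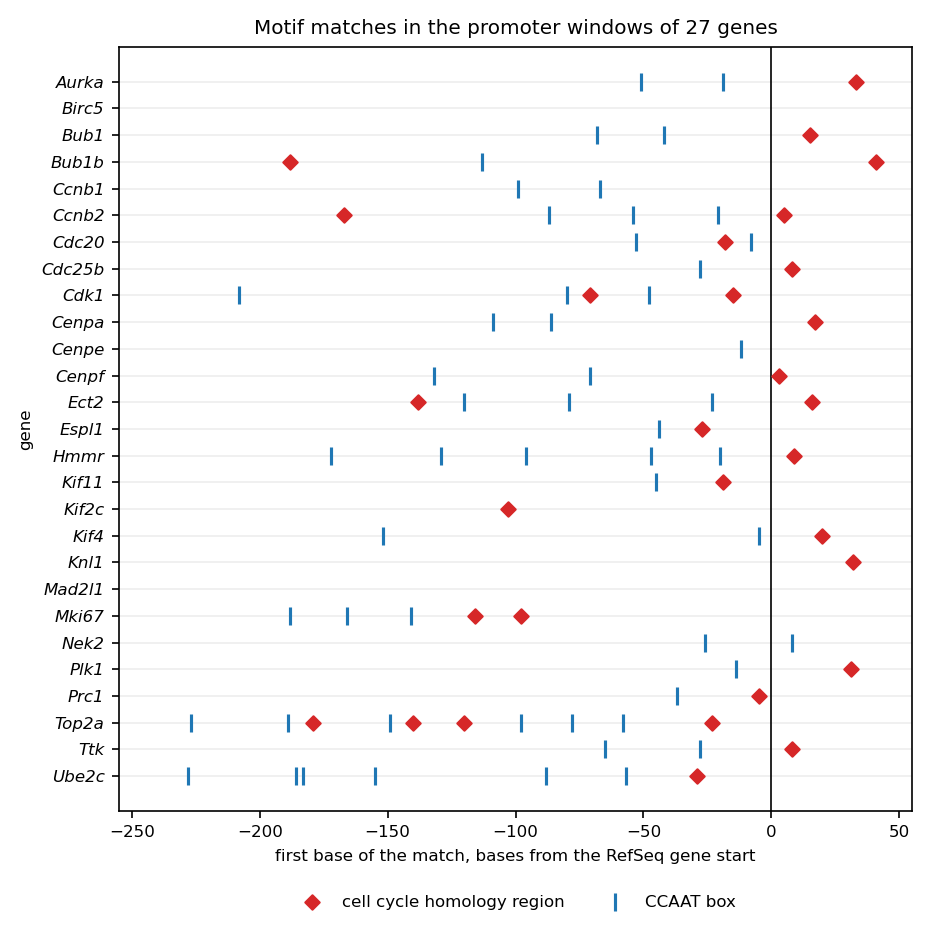
Distance in bases (x axis) of each CHR match (diamonds) and CCAAT match (bars) from the RefSeq gene start for the 27 genes (y axis) with a promoter window, 1 window per gene (for Ect2 and Prc1, which have 2, the one that comes first on the chromosome). CHR matches lie near the start in 20 of the 27 genes, with CCAAT matches mostly upstream of them.

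Some properties of the arrays bear on every value below. Knockout replicate 2 had the narrowest interquartile range over the annotated probe sets, 1.98, against 2.62 to 2.94 on the other 3 arrays. Genes at least as bright as the dimmest of the 31 mitotic genes (3474 genes) had a median difference between the genotypes of -0.40 within number 2 and of +0.08 within number 1, against +0.14 and -0.01 over all genes. Parp2 itself, the targeted gene, read 8.24 on wild type replicate 1 and 7.65 on replicate 2; the knockout arrays read 7.11 and 6.70. The groups did not overlap, with the knockout lower. The difference was -1.04 ± 0.40 (SE, 2 arrays per genotype) and did not pass the test over all probe sets (limma, unadjusted p = 0.0368). Erythroid genes were bright on every array: the transferrin receptor gene Tfrc lay between 10.35 and 11.43, and the band 3 gene Slc4a1 between 11.50 and 13.01.

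The main comparison asked whether genes of G2 and mitosis differed between Parp2 knockout and wild type erythroblasts. Of the 31 genes 0 passed the limma test (Benjamini-Hochberg adjusted p under 0.05), where 0% of the 23410 annotated probe sets passed, and 0 had an unadjusted p under 0.05 (2.08% of all probe sets, 0.342% higher and 1.73% lower). Their median difference, knockout minus wild type, was -0.02 on the log2 scale, beside +0.08 over all genes and -0.16 over genes at least as bright as the dimmest of the 31 (the bright genes). There were 15 genes higher and 16 lower (51.6% lower, against 41.5% of all genes and 69.7% of the bright ones). That split was 9 higher and 22 lower when arrays were centred on their medians, and 19 higher and 12 lower after repeated quantile normalisation. In 7 genes (22.6%) the higher knockout array was still below the lower wild type array, a pattern found in 9.62% of all genes and in 12.4% of the bright genes. Of these, Kif2c, Ttk, Aurka, Aurkb and Mad2l1 kept this order under both other scalings, and Cenpa had it after centring. In the deposited values the opposite pattern held for Cdc20 alone (3.23%), against 16.4% of all genes and 3.17% of the bright ones. Ube2c had it after centring and Nek2 after repeated quantile normalisation. Shares of all genes and of the bright ones are from the deposited values here and below, also where counts under other scalings are given. The widths of the 95% intervals set what these 4 arrays could show: for Cdk1 the interval ran from -0.92 to +0.89, and for Cdc25b from -1.31 to +3.15. In bulk samples such as these, fewer cells in G2 or mitosis and less RNA per such cell cannot be told apart.

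**Figure D2:**
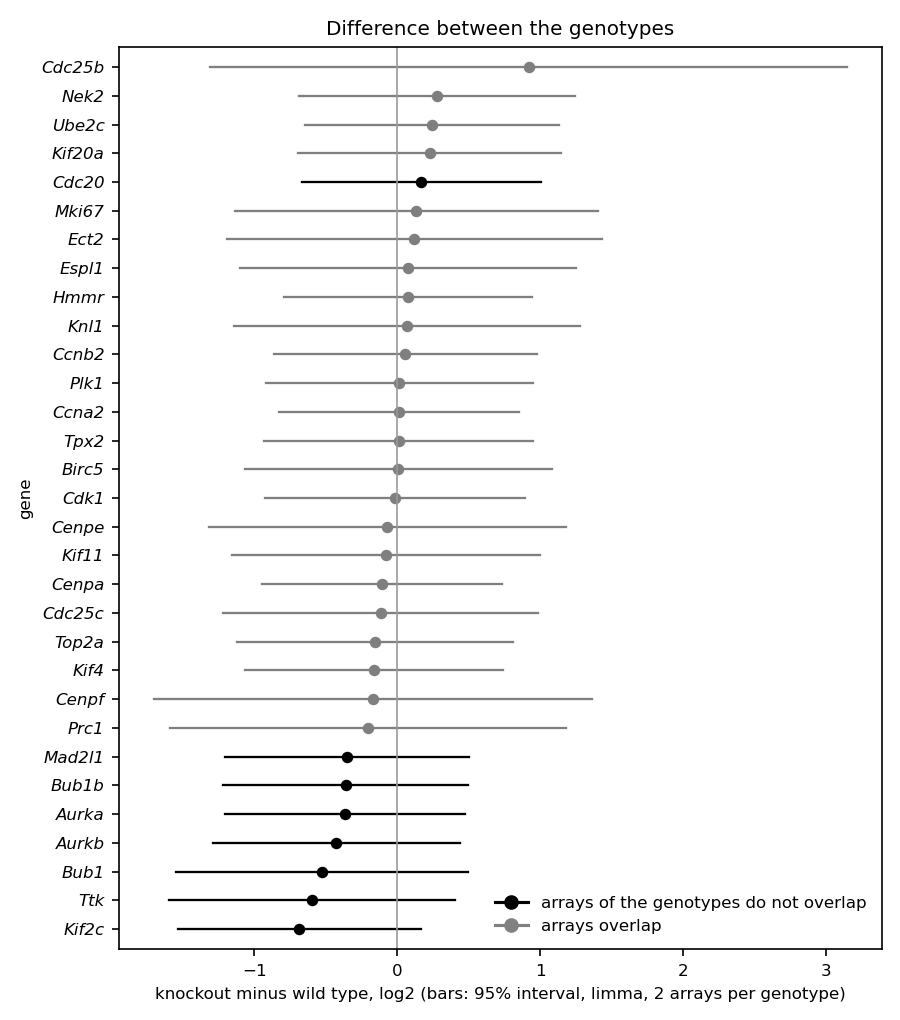
Knockout minus wild type difference (x axis, log2) of the 31 genes (y axis), with 95% intervals from limma on 2 arrays per genotype; black marks genes whose arrays do not overlap between the genotypes. Every interval includes 0, from Kif2c at -0.68 to Cdc25b at +0.92.

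Among the genes of mitotic entry, Cdk1 and the cyclin genes had differences near 0 and Cdc25b the widest spread between arrays. Cdk1, the kinase that drives entry, read 9.17 and 9.73 in wild type and 9.48 and 9.39 in the knockout (replicates 1 and 2 in this order, as in all such sentences). Both knockout values lay between the wild type values, and the difference was -0.02 ± 0.38 (SE, 2 arrays per genotype). The cyclin genes Ccna2 and Ccnb2 differed by +0.01 and +0.06. Cdc25b, whose phosphatase activates Cdk1 before entry, read 7.29 and 9.99 in wild type and 8.70 and 10.42 in the knockout. It had the largest difference of the 31 genes, +0.92 ± 0.94, yet wild type replicate 2 stood above knockout replicate 1, and the spread within each genotype exceeded the difference between them (unadjusted p = 0.36). Without wild type replicate 1 the Cdc25b difference was -0.43 and without wild type replicate 2 it was +2.27. Its relative Cdc25c differed by -0.12, with the wild type arrays again on either side of the knockout arrays.

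Of the 5 mitotic kinases, 3 were lower on each knockout array than on either wild type array. That order was found in 9.62% of all genes and in 12.4% of the bright ones. Ttk, the checkpoint kinase also called Mps1, read 7.81 and 7.90 in wild type and 7.68 and 6.83 in the knockout. The groups did not overlap, but knockout replicate 1 was close to the wild type arrays and most of the difference of -0.60 ± 0.42 came from knockout replicate 2. Plk1, the Polo-like kinase of spindle assembly and mitotic exit, read 9.83 and 9.45 in wild type and 9.92 and 9.39 in the knockout, a difference of +0.02 ± 0.39. In both genotypes the array of number 1 was the higher of the pair, the reverse of most of the 31 genes. Nek2, a kinase of centrosome separation, differed by +0.28 with overlapping arrays. Aurka and Aurkb, the Aurora kinases of the spindle poles and of the chromosomal passenger complex, are given by array because of their values, as is Cdc20. The erythroid genes Tfrc and Slc4a1 above are given by range for the same reason. Aurka read 10.24 and 10.26 in wild type and 9.80 and 9.96 in the knockout. Aurkb read 9.99 and 9.76 in wild type and 9.59 and 9.31 in the knockout. Differences were -0.37 ± 0.35 and -0.43 ± 0.36, with -0.44 and -0.40 within number 1 and -0.30 and -0.45 within number 2. Their arrays did not overlap after centring or after repeated quantile normalisation, but under the latter the differences were -0.53 and -0.51 within number 1 and only -0.043 and -0.15 within number 2.

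Among kinetochore and checkpoint genes 6 of 7 were lower in the knockout on average, against 41.5% of all genes and 69.7% of the bright ones. For 3 of them the arrays did not overlap, against 9.62% of all genes and 12.4% of the bright ones. Bub1, the checkpoint kinase at kinetochores, read 8.73 and 9.65 in wild type and 8.71 and 8.62 in the knockout. Wild type replicate 2 stood apart from the other 3 arrays, which lay within 0.114 of each other, and the difference was -0.53 ± 0.43. For Bub1b, which encodes the checkpoint protein BubR1, the differences were -0.15 within number 1 and -0.57 within number 2. The corresponding values for Mad2l1, the gene of the checkpoint protein Mad2, were -0.20 and -0.51. Bub1 and Bub1b overlapped after repeated quantile normalisation, and Mad2l1 did not. The large coiled-coil kinetochore genes behaved otherwise. Cenpe, a motor that moves chromosomes to the spindle equator, read 8.42 and 9.80 in wild type and 8.83 and 9.25 in the knockout. Cenpf read 8.27 and 10.12 in wild type and 8.65 and 9.40 in the knockout. In both genes the knockout arrays lay between the wild type arrays, and the differences were -0.07 ± 0.52 and -0.17 ± 0.64. Knl1, the kinetochore scaffold, and Cenpa, the centromeric histone, differed by +0.07 and -0.11.

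Of the spindle genes, Kif2c had the lowest p of all 31. Kif2c encodes a kinesin that takes microtubules apart at their ends and corrects wrong attachments. It read 8.88 and 8.63 in wild type and 8.10 and 8.04 in the knockout. Both knockout arrays were lower by more than the spread within either genotype, the difference was -0.68 ± 0.36, a 1.61-fold lower level, and the unadjusted limma p was 0.0972. Its adjusted p of 0.99995 was far from the threshold. The difference was -0.78 within number 1 and -0.59 within number 2, and after repeated quantile normalisation the latter was -0.27. The motor genes Kif11 (-0.08), which separates spindle poles, Kif4 (-0.16) and Kif20a (+0.23), and the spindle assembly genes Tpx2 (+0.01) and Hmmr (+0.08), all had overlapping arrays.

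Genes of anaphase and cytokinesis were on average slightly higher in the knockout in 5 of 6 cases, none past the test. A lower mean was found in 41.5% of all genes and in 69.7% of the bright ones. The median of the 6 was +0.36 within number 1 and -0.35 within number 2, where 4 of the 6 were lower. Cdc20, the activator of the anaphase-promoting complex, was the 1 gene of the 31 for which each knockout array exceeded either wild type array. Its values were 8.74 and 8.86 in wild type and 8.95 and 8.98 in the knockout, so that the groups were +0.17 ± 0.35 apart, and they overlapped under both other scalings. Ube2c, the ubiquitin-conjugating enzyme that works with this complex, read 9.82 and 10.20 in wild type and 10.11 and 10.40 in the knockout. Within either number the knockout array was the higher one, and the difference was +0.24 ± 0.37. Prc1, which bundles microtubules between the separating chromosomes, read 8.95 and 10.30 in wild type and 8.89 and 9.95 in the knockout. Its arrays fell into pairs by number, not by genotype, and the genotype difference was -0.20 ± 0.58. Ect2, the exchange factor that starts the cleavage furrow, read 7.57 and 9.05 in wild type and 8.16 and 8.69 in the knockout, a difference of +0.12 ± 0.55. Espl1, the separase gene, and Birc5, which encodes the passenger protein survivin, differed by +0.08 and +0.01, again with the knockout arrays inside the wild type range. After centring Birc5 differed by -0.06.

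The general proliferation genes followed the same order. Mki67, the gene of the Ki-67 antigen that coats mitotic chromosomes, read 10.64 and 12.03 in wild type and 11.20 and 11.73 in the knockout, a difference of +0.13 ± 0.53. Top2a, the topoisomerase that untangles sister chromatids, read 10.60 and 11.35 in wild type and 10.77 and 10.87 in the knockout, a difference of -0.16 ± 0.41. In both genes wild type replicate 1 was the lowest array and wild type replicate 2 the highest. The dimmer probe set of Top2a gave the same order of the wild type arrays around the knockout arrays, with a genotype difference of -0.05.

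**Figure D3:**
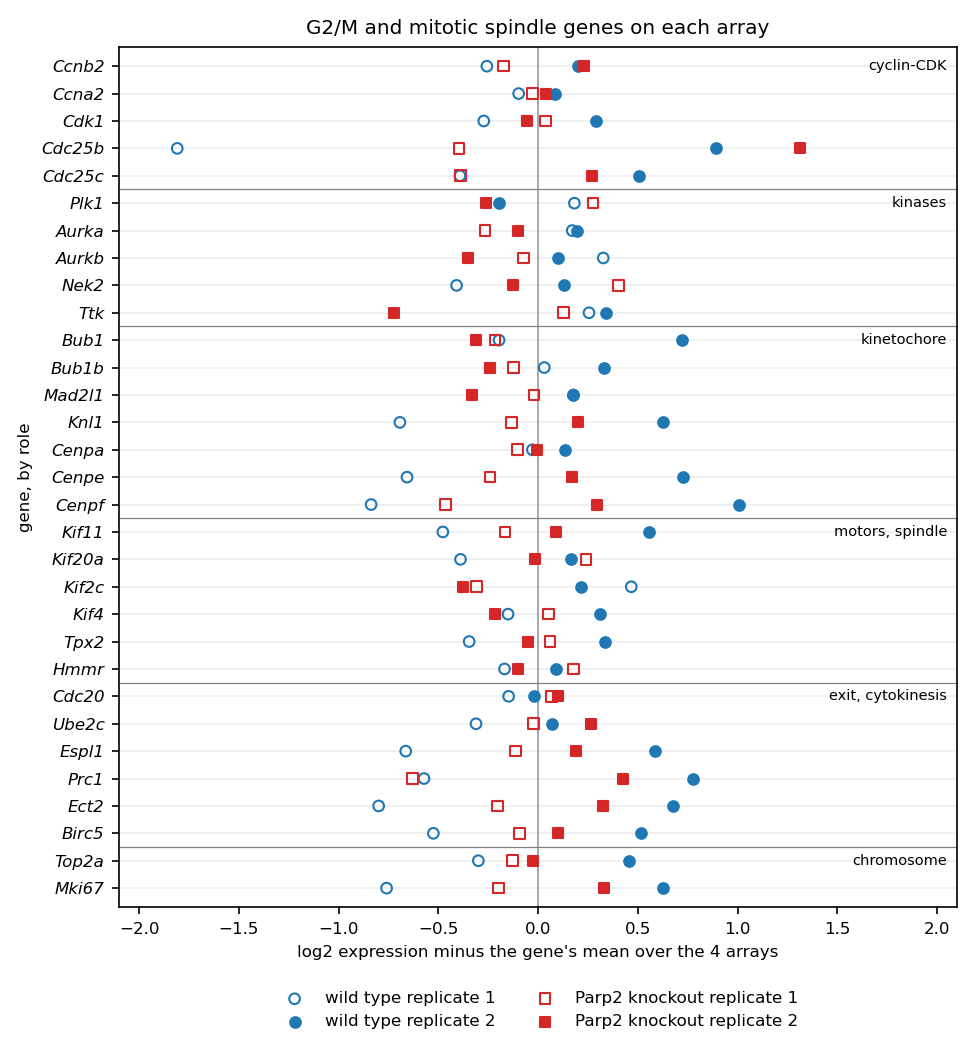
Log2 level on each array minus the gene's mean over the 4 arrays (x axis) for the 31 genes grouped by role (y axis); circles are wild type, squares Parp2 knockout, open symbols replicate 1 and filled symbols replicate 2. Wild type replicate 1 is the lowest array for 20 genes and wild type replicate 2 the highest for 20.

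Over the 31 genes the median of wild type replicate 2 minus replicate 1 was +0.55, beside -0.02 for knockout minus wild type. The former sets 1 array against 1 and the latter means of 2 arrays, with 15 genes higher and 16 lower. In size, the genotype difference was the larger for Aurka, Aurkb, Ttk, Bub1b, Mad2l1, Kif2c and Cdc20, and the smaller for the other genes. The median over the genes was 9.10 and 9.73 on the wild type arrays of numbers 1 and 2, and 9.24 and 9.31 on the knockout arrays. Both knockout arrays lay between the wild type arrays for 13 genes (41.9%), among them Cdk1, Cdc25c, Knl1, Cenpe, Cenpf, Kif11, Espl1, Ect2, Birc5, Top2a and Mki67. That order was found in 12.3% of all genes and in 18.4% of the bright ones, and it held for 12 of the 31 genes under either other scaling. Wild type replicate 2 was the highest array for 20 genes (64.5%, against 15.2% of all genes and 25.8% of the bright ones). Wild type replicate 1 was the lowest for 20 (64.5%, against 26.3% and 22%).

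Within number 1 the knockout array was above the wild type array for 22 of the 31 genes (71%, against 49.4% of all genes and 57.8% of the bright ones), with a median difference of +0.21. Within number 2 it was below for 27 (87.1%, against 41.7% and 83.4%), with a median of -0.35. Across the numbers, knockout replicate 1 minus wild type replicate 2 had a median of -0.45 and was below 0 for 26 genes (83.9%, against 48.1% of all genes and 38.8% of the bright ones). Knockout replicate 2 minus wild type replicate 1 had a median of +0.28 and was above 0 for 22 (71%, against 59.8% and 27.7%). The bright genes had a median of +0.21 in the former difference and -0.60 in the latter. Each of these sets 1 array against 1, and no test of the change of sign between the numbers could be made, since 4 arrays in 4 combinations leave no residual spread. A total of 18 genes (58.1%) were higher in the knockout within number 1 and lower within number 2, against 20.9% of all genes and 47.7% of the bright ones, and 0 showed the opposite, against 29.9% and 6.48%. With repeated quantile normalisation, which gives all arrays 1 distribution, 12 genes were higher within number 1 and lower within number 2. Under that scaling Ccna2 (-0.0085 and +0.32 within numbers 1 and 2), Cdc25c (-0.027 and +0.11) and Cenpa (-0.14 and +0.10) showed the opposite. The median over the 31 genes was then +0.19 within number 1 and -0.07 within number 2. Knockout replicate 2 is the array with the narrowest range of values, and the part of that range in the change of sign was not tested.

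Both numbers gave the same sign for 13 genes. Lower in the knockout within both were 9, namely Aurka, Aurkb, Ttk, Bub1, Bub1b, Mad2l1, Cenpa, Kif2c and Prc1 (29%, against 20.7% of all genes and 35.7% of the bright ones). Higher within both were 4, namely Ccnb2, Cdc25b, Cdc20 and Ube2c (12.9%, against 28.4% and 10.2%). Centring the arrays left 9 and 2, and repeated quantile normalisation 8 and 8.

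**Figure D4:**
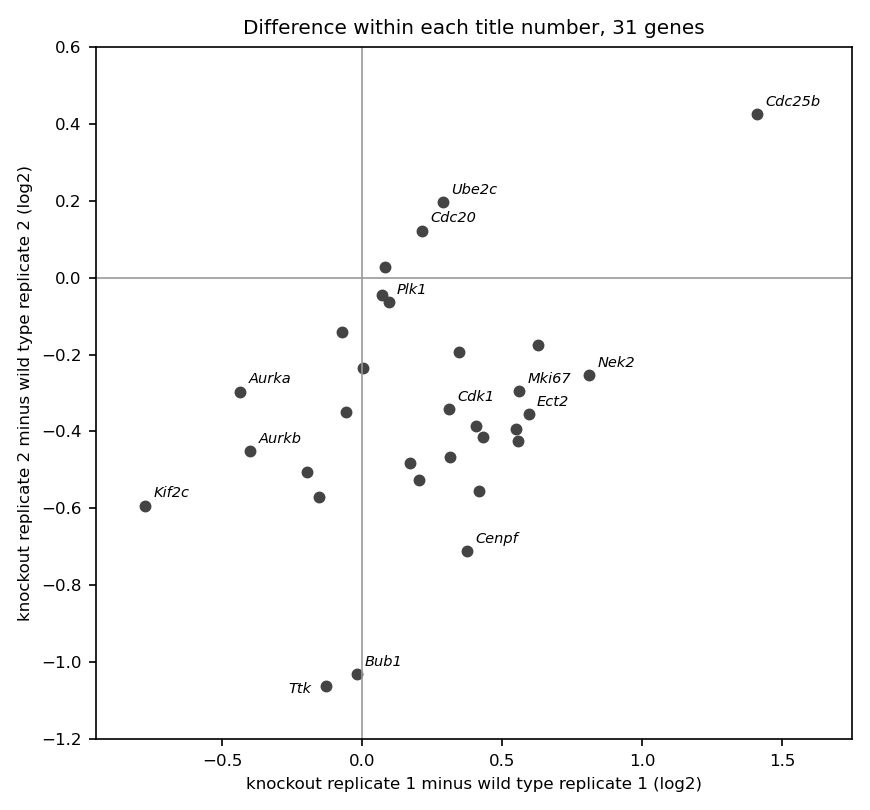
Knockout minus wild type difference (log2) of the 31 genes between the arrays of number 1 (x axis) and between those of number 2 (y axis), 1 point per gene. The 18 genes at the lower right were higher in the knockout within number 1 and lower within number 2; Kif2c and the Aurora kinase genes were lower within both, and Cdc25b higher within both.

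The arrays were then compared by title number in place of genotype. Cdc25b passed the limma test as higher on the arrays of number 2, by +2.21 ± 0.45 (SE, 2 arrays per number; adjusted p = 0.036), a 4.61-fold higher level, and it was higher in both genotypes. It was the 1 gene of the 31 past this test (3.23%), where 3.09% of all probe sets passed, 0.94% as higher and 2.15% as lower. The call ended when wild type replicate 1 (+1.50), wild type replicate 2 (+2.42) or knockout replicate 2 (+1.99) was left out. It also ended after centring, after repeated quantile normalisation, with all rows of the table, with brighter probe sets alone and with array weights. The direction of the Cdc25b difference held in all settings that were run. Next in order of p came Prc1 (+1.20), Cenpf (+1.30), Ect2 (+1.00), Mki67 (+0.96) and Cenpe (+0.90), whose adjusted p lay between 0.0735 and 0.199. At an unadjusted p under 0.05 there were 9 of the 31 genes higher (29%, against 5.24% of all genes and 9.24% of the bright ones) and 0 lower (against 11.7% and 30.9%). The median over the 31 genes was +0.29, beside +0.09 over all genes and -0.42 over the bright ones. Centring the arrays made the first of these +0.10 and the second -0.10. Among 19 late erythroblast genes, listed further below, 5 passed the limma test as higher on the arrays of number 2. A total of 16 of the 19 were higher at an unadjusted p under 0.05. The median of that list by number was +1.46 in the deposited values. Wild type replicate 2 exceeded replicate 1 for 27 of the 31 genes (87.1%, against 45.7% of all genes and 40.2% of the bright ones), with a median of +0.55 beside -0.21 for the bright genes. Knockout replicate 2 exceeded replicate 1 for 18 (58.1%, against 61.3% and 23.7%), with a median of +0.10 beside -0.61. Across the 31 genes these differences had a Pearson correlation of 0.809 between the genotypes, which is a description over genes of the same arrays and not over replicates.

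Other genes of mitosis were taken from a list of 101, of which 98 were measured. By genotype 0 passed the test, 2 had an unadjusted p under 0.05 (2.04%, against 2.08% of all probe sets), and the median was -0.17, close to the -0.16 of the bright genes, to which 77 of the 98 belong. There were 24 higher and 74 lower in the knockout (75.5% lower, against 69.7% of the bright genes). The split was 15 and 83 after centring and 39 and 59 after repeated quantile normalisation. Arrays did not overlap for 4 higher genes (4.08%, against 16.4% of all genes and 3.17% of the bright ones) and 18 lower genes (18.4%, against 9.62% and 12.4%). The 4 highest were Psrc1, the gene of a microtubule-binding spindle protein, at +1.43 ± 0.50, Lin52, a subunit of the MuvB core, at +1.21 ± 0.36, Fzr1, the G1 activator of the anaphase-promoting complex, at +0.64 ± 0.85, and Gtse1, at +0.53 ± 0.35. Lin52 read 5.79 and 6.19 in wild type and 7.21 and 7.20 in the knockout. Psrc1 read 7.54 and 6.85 in wild type and 8.06 and 9.20 in the knockout. Those were the pair with an unadjusted p under 0.05, and in both the knockout arrays were above the wild type arrays. The lowest were Arpp19 (-0.88) and Mastl (-0.82), which together restrain the phosphatase PP2A in mitosis, the kinase gene Pbk (-0.86) and Sgo1 (-0.69), the guardian of sister cohesion. By number Fzr1 passed as higher on the arrays of number 2 (+1.94, adjusted p = 0.0387), with values of 8.19 and 10.69 in wild type and 9.38 and 10.77 in the knockout. The Fzr1 call ended when wild type replicate 1 (+1.35), wild type replicate 2 (+1.98) or knockout replicate 2 (+1.90) was left out. Arpp19 (-2.03), Anapc4 (-1.36) and Anapc11 (-1.22), the last 2 of them subunits of the complex that Fzr1 activates, were lower there, with adjusted p of 0.071, 0.0667 and 0.0845.

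Within this list the roles differed in their values by array. The 28 other spindle and cytokinesis genes had medians of 8.05 and 9.32 in wild type and 8.40 and 8.80 in the knockout, and wild type replicate 2 was the highest array for 24 of them. The 14 genes of the anaphase-promoting complex and its partners had medians of 8.28 and 7.84 in wild type and 8.46 and 7.27 in the knockout, with wild type replicate 2 highest for 2 of 14. The 12 genes of entry control had a median of 7.30 on knockout replicate 2 and of 8.11 to 8.40 on the other 3 arrays. Foxm1, the transcription factor of the G2 genes, differed between the genotypes by -0.26 ± 0.37; it was named for its role after its value was seen.

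Values of other gene lists on the same arrays are given beside those of the mitotic genes. The 19 late erythroblast genes had medians of 8.89 and 10.67 in wild type and 9.37 and 10.57 in the knockout. As with the mitotic genes, wild type replicate 1 was the lowest array for most of them (17 of 19) and wild type replicate 2 the highest for 12. Knockout replicate 2 was the highest for 7, among them the heme synthesis gene Alas2. It read 10.18 and 12.09 in wild type and 11.13 and 12.24 in the knockout. The 32 replication and licensing genes, which act in the phase before, had medians of 9.43 and 9.38 in wild type and 9.70 and 8.89 in the knockout; wild type replicate 2 was highest for 3 of them. Genotype differences of the listed genes with the lowest p were +0.75 for the replication gene Gins4, -0.57 for the erythroblast adhesion gene Icam4 and -1.07 for Ccnd2, the cyclin D2 gene of early progenitors, 0 of them past the test. The 16 early erythroid and progenitor genes had medians of 8.18 and 7.45 in wild type and 7.54 and 6.75 in the knockout.

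Dividing cells of other lineages express the same mitotic genes. Beside the counts that follow, a mean lower in the knockout was found in 41.5% of all genes and in 69.7% of the bright ones. Neutrophil markers had medians of 10.84 and 9.98 in wild type and 8.96 and 8.46 in the knockout, with 18 of 18 lower there, Chil3 (-1.96) having the lowest p. Of the B cell markers 10 of 12 were lower, with medians of 6.36 and 7.01 in wild type and 5.64 and 5.73 in the knockout; Ms4a1 differed by -2.00. Markers of mast cells, basophils and eosinophils were lower in 9 of 12 (median -0.40, Mcpt8 -2.24), those of monocytes and macrophages in 10 of 13 (median -0.58, Adgre1 -1.12) and those of T and NK cells in 9 of 12 (median -0.28, Nkg7 -1.63). The first of these lists had a median of -0.99 within number 1 and of +0.02 within number 2, with 6 higher and 6 lower there. Its knockout levels were dim, at 4.98 and 5.08, below the middle value of the whole array (5.23 and 5.49). The T and NK list lay below that middle value on all 4 arrays, for example at 4.76 against 5.24 on wild type replicate 1. The monocyte and macrophage list lay below it on knockout replicate 1 alone, at 5.14 against 5.23. Whether fewer such cells were present was not tested. Megakaryocyte markers were higher in 6 of 8 (median +0.33, Pf4 +1.14). The 11 measured erythroid markers had medians of 10.35 and 11.44 in wild type and 10.82 and 11.25 in the knockout, in which wild type replicate 1 was again the lowest and wild type replicate 2 the highest. The part of stage and of other cell types in the values of the mitotic genes was not tested.

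**Figure D5:**
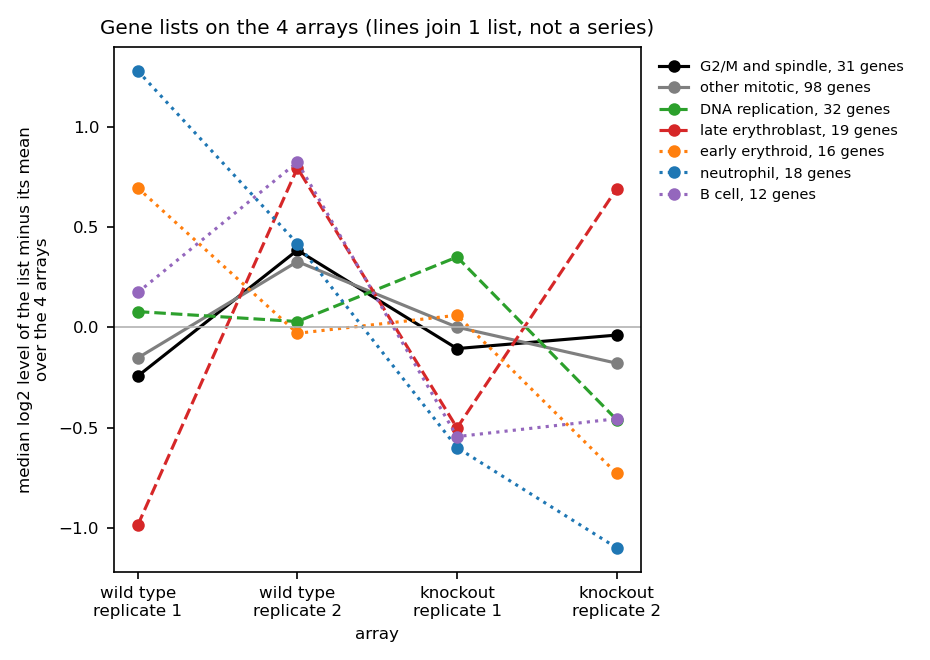
Median log2 level of 7 gene lists on each array (y axis, minus the list's mean over the 4 arrays) for the 4 arrays (x axis); lines only join the points of a list. The mitotic lists and the late erythroblast list are highest on wild type replicate 2, and the neutrophil and B cell lists are lower on both knockout arrays.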

How the data were processed

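Log2 expression values of 35511 probe sets on 4 arrays were deposited by the authors, and columns were matched to samples by accession. Each array received target made from 100 ng of RNA, per the labels. The submitters' processing notes name RMA, limma and R 3.0.2, with roles not given in the sources used here. The deposited log2 values were not normalised further. The platform annotation named a single gene for 21789 probe sets, more than 1 gene for 1621 and no gene for 12101.

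Arrays were compared by genotype, and then by title number, with the moderated test of limma 3.58.1 (R 4.3.3), 2 arrays per side, over the 23410 annotated probe sets, with Benjamini-Hochberg adjustment and a threshold of 0.05. The scripts were checked on simulated arrays. A two-sided exact permutation test of 2 against 2 cannot go below 0.333, so none was used. The labels do not say whether the samples are separate animals, and p-values then reflect sample spread that may be no more than technical. Titles start with 1 or 2 in wild type samples and with 3 or 4 in knockout samples, so an order of processing and the genotype cannot be told apart. The number of arrays limits the precision.

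Genes named with a value on each array were Parp2, the gene of lowest p and of largest difference per role, the 6 of lowest p by number, and Cdk1, Plk1, Top2a and Mki67. Psrc1, Lin52, Fzr1 and Alas2, from the other lists, were also given by array. Aurka, Aurkb and Cdc20 (by array), Tfrc and Slc4a1 (by range) and Foxm1 (by difference) were added after their values were seen. Of the other mitotic genes the 4 highest, the 4 lowest and the 4 of lowest p by number were named, and of further lists the gene of lowest p. The genes and lists were chosen with earlier results of these data known. Alternatives were the title number or genotype as a further term, leaving out each array, centring, repeated quantile normalisation, brighter probe sets alone, a trended and robust prior, weights per array, the whole table with unnamed rows, other thresholds and averages over the probe sets of a gene. Other scalings of the within-number medians and the background of bright genes were chosen after seeing the data.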

Additional observations from a re-analysis of the deposited data

Results flagged for a closer look

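The median difference between knockout and wild type over the 31 mitotic genes was +0.215 within number 1 and -0.354 within number 2. It stood out because most of the genes moved one way in the first pair of arrays and the other way in the second. Each pair is 1 array against 1, so the difference between them was not tested. The corresponding median over all genes at least as bright as the dimmest of the 31 was +0.08 within number 1 and -0.40 within number 2.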

How the results depend on the processing

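The 31 genes had 0 calls by genotype in every setting run, among them the title number as a replicate block, which called 274 of all probe sets (50 higher, 224 lower) and 1 other mitotic gene, Psrc1. The numbers are not stated to pair the arrays; differences between numbers 2 and 1 had a correlation of 0.468 between the genotypes over all probe sets, and with 2 pairs no more can be checked. Trended and robust moderation called 8 probe sets by genotype, an unadjusted p under 0.05 gave 486 and 2 other mitotic genes, and leaving out 1 array gave 0 to 62 (5 without the wild type array of number 1, 62 without that of number 2). Leaving out 1 array put the median of the 31 genes between -0.43 and +0.28 (wild type replicate 1 or 2 left out), and the count of non-overlapping genes between 13 and 27. Fewer arrays overlap less often, and the share among all genes under these settings is not given here. No conclusion about the 31 genes is therefore drawn from that count. By number, the 724 probe sets and 1 of the 31 genes became 0 and 0 after centring, after repeated quantile normalisation and with all rows of the table. They became 182 and 0 with brighter probe sets, 10 and 0 with array weights, 2190 and 4 with trended and robust moderation, and 2121 and 3 with genotype as a term. An adjusted p under 0.1 gave 1648 and 3, an unadjusted p under 0.05 gave 4202 and 9, and leaving out 1 array gave 0 to 1178 and 0 to 1; 0 probe sets passed when either array of number 2 was left out. The causes were not tested.

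By genotype, Plk1 reversed to -0.058 after centring, and Cenpe to +0.061 and Cdk1 to +0.13 after repeated quantile normalisation. By number, Gtse1 reversed to -0.080 and Sgo1 to -0.16 after centring, and Kif2c to +0.12 after repeated quantile normalisation. When 1 array was left out, the genotype difference changed sign for these genes: Cdc25b ranged from -0.43 to +2.27, Top2a from -0.53 to +0.22, Prc1 from -0.88 to +0.47, Cenpf from -1.09 to +0.75, Ect2 from -0.62 to +0.86, Mki67 from -0.56 to +0.83, Cenpe from -0.76 to +0.62, Cdk1 from -0.30 to +0.26, Plk1 from -0.25 to +0.28, Fzr1 from -0.61 to +1.89, Arpp19 from -2.42 to +0.67, Anapc4 from -1.22 to +0.52 and Anapc11 from -1.07 to +0.52. The difference by number did so for Parp2 (-1.07 to +0.061), Kif2c (-0.55 to +0.23), Psrc1 (-0.95 to +1.40), Lin52 (-0.52 to +0.90), Gtse1 (-0.16 to +0.37), Bub1 (-0.10 to +0.93), Sgo1 (-0.53 to +0.58) and Ttk (-0.91 to +0.15). Over 24 named genes and both comparisons, 462 of 532 values kept their direction and side of the threshold.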
